A study of Mus musculus with 8 samples.

Results

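Dysfunctional CD8 T cells collected on day 19 were compared here with effector CD8 T cells collected on day 7, to separate the genes of persistent dysfunction from those of activation. The comparison used 4 of the 8 RNA-Seq libraries of the series: 2 labelled dysfunctional (T_Dysf) and 2 labelled Effector, chosen by their labels. All of the cells were P14 cells, which are mouse splenic CD8 T cells with a transgenic T cell receptor (TCR) for the GP33 peptide of LCMV. Naive cells of every group were first activated for 2 days on plates coated with antibodies to CD3 and CD28. The labels do not state the peptide treatment of Effector cells, which the study describes as stimulated up to day 7. T_Dysf cells were given GP33 repeatedly up to day 19, with TGF-β1 added from day 7 on, so antigen, TGF-β1 and time in culture all distinguish them from Effector cells. These 3 factors cannot be told apart by this comparison. The libraries of the groups also differ in a name prefix and in sex-linked genes, both described below. Neither can be told apart from the condition. The other 4 libraries, used to share the estimate of the spread and as a reference for levels, came from cells rested without peptide until day 19, either from day 2 (Acute-2d) or after GP33 until day 7 (Acute-7d). Per the study's methods, the P14 mice were adults of either sex on a C57BL/6 background, and the libraries of a condition were biological replicates. Which animal or culture each library came from is not given in the labels, and p-values measure the spread between these libraries.

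CD8 T cells that meet antigen expand through glycolysis, ribosome production and rapid division, and then either rest as memory cells or, if antigen persists, become dysfunctional. Dysfunctional cells keep inhibitory receptors such as PD-1, lose the TCF1-dependent memory program and respond poorly to antigen. TGF-β, which signals through the type I and type II receptors to SMAD2 and SMAD3, induces the integrin CD103 and other features of tissue residency in these cells and restrains their function.

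The deposited values were read counts divided by a size factor for each library, called normalized counts here, and a log2 fold change is the difference of the mean log2(normalized count + 1) of T_Dysf minus that of Effector. Genes were called differentially expressed (DEGs) when they changed 2-fold or more with a Benjamini-Hochberg adjusted p under 0.05 in limma's moderated test over all 24303 genes. All adjusted p-values below come from that test, and errors on log2 fold changes are its SE with 2 libraries in each group. Depth was 19382147 to 24856195 reads on genes per library, and 3 reads, the floor below which a fold change is given as a lower bound, were worth 2.59 to 3.35 normalized counts. This floor covers counting error only. Because the RNA came from many cells at once, fewer cells that express a gene and less RNA per cell cannot be told apart. The markers of CD8 T cells were present in every library, with summed levels of 86999 and 89556 in Effector and 148576 and 153469 in T_Dysf. *Cd4* and *Cd79a* stayed at or under 21.4 normalized counts in all libraries, and the summed B cell markers were 158 and 196 in Effector and 163 and 177 in T_Dysf. Of markers of other cell types, *Jchain* and *Sdc1*, among 4 plasma cell markers, *Itgax*, among 5 dendritic cell markers, and *Csf1r*, among 6 myeloid markers, were higher in T_Dysf, and *Cd40lg*, among 4 CD4 T cell markers, was lower. The plasma cell marker *Mzb1* was at or near 0. *Csf1r* was at 6.49 and 6.64 against 21.01 and 18.00 and *Cd40lg* at 11.9 and 13.04 against 0 and 0, and the call of *Csf1r* was lost without any single library. *Itgax* is itself an integrin gene of activated CD8 T cells. Summed plasma cell markers were 622 and 1150.5 against 1344 and 1369, and dendritic cell markers 411 and 1224 against 3534 and 3729.5. Summed myeloid markers were 327 and 664 against 434 and 492, and CD4 T cell markers 1141 and 1451 against 1083 and 1409. Their part in the results below was not tested.

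2241 genes were DEGs. Of these, 1086 (4.47% of genes) were higher and 1155 (4.75%) lower in T_Dysf. Among the 11874 genes that averaged 50 or more normalized counts in T_Dysf and Effector libraries, 6.57% were DEGs higher and 7.25% DEGs lower, and their median log2 fold change was -0.03. These shares are the reference for the counts within gene lists below. Changes beyond 8-fold were seen in 245 DEGs that rose and 175 that fell. At an unadjusted p under 0.05 there were 7712 genes of any fold. The number of DEGs depended on single libraries. Without T_Dysf replicate 1 it fell to 585, and without Effector replicate 2 it was 1256. Without T_Dysf replicate 2 the DEGs higher in T_Dysf numbered 723. Calls of named genes depended on single libraries too. Of the 143 DEGs named, 52 held the call whichever of the 8 libraries was left out, and 89 lost it without T_Dysf replicate 1. Calls that held are named in each paragraph, and calls not so named were lost at least without that replicate unless another library is given. Replicate 1 of T_Dysf held 136 entries at or under 3 reads that lay at 50 normalized counts or more in all other libraries, 130 of them pseudogenes and none of them a DEG. Both Effector libraries, but neither T_Dysf library, carry the prefix RESUB in their names, as does Acute-7d replicate 1. The labels do not say what it means. With a term for the prefix, which is then estimated from the Acute-7d pair alone, 386 DEGs were called, 187 higher and 199 lower, and 191 of the 2241 were among them. Of the 143 DEGs named, 114 lost the call with this term, and 99 lost it with the 4 T_Dysf and Effector libraries alone. Calls said below to hold were kept as single libraries were left out, and many of them were lost under these other settings. Genes said below not to be DEGs, or to miss the test, are so in the main fit over all genes. With low-level genes filtered out before the fit, 11 named genes gained the call, and the closing section lists them.

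**Figure D1:**
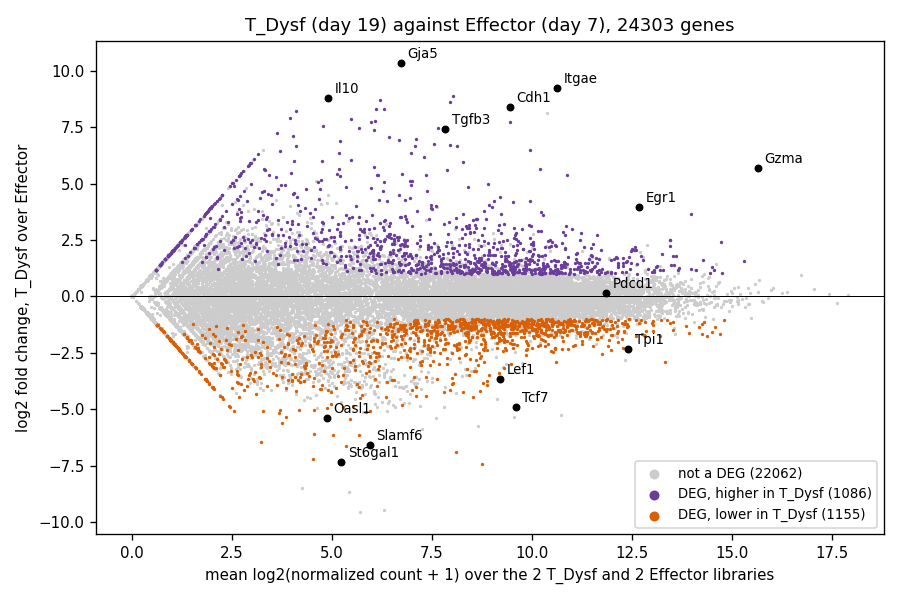
Mean level against log2 fold change of T_Dysf over Effector for all genes, 1 point per gene; purple and orange points are the 1086 DEGs that were higher and the 1155 that were lower in T_Dysf, and black points are labelled genes. *Gzma* combines a high level with a large increase, and *Pdcd1*, near 0 on the vertical axis, is not a DEG.

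The largest increases were in genes almost silent in Effector cells. *Gja5* (chr3:97032402-97053634, mm10), which encodes the gap junction protein connexin 40, was at 1.83 and 2.01 normalized counts in the Effector libraries and at 3585 and 4001 in T_Dysf. It was at least 1319-fold higher (log2 fold change 10.34 ± 0.47; adjusted p = 0.0016), and no Acute library exceeded 3.24. *Itgae* (chr11:73090505-73147449) encodes CD103, the integrin α chain that binds E-cadherin, and it went from 80.4 and 50.2 to 40456 and 37825. That increase was 599.5-fold (log2 fold change 9.24 ± 0.22; adjusted p = 0.00038), and the rested Acute libraries held 71.4 to 101. *Cdh1*, the gene of E-cadherin itself, rose as well, from 103 and 13.04 to 12261 and 13187; the Acute libraries, at 819 to 1920.1, lay between the groups. *Il10*, an anti-inflammatory cytokine, was at 0 and 1.003 in Effector and 615 and 637 in T_Dysf, at least 218-fold higher, and at most 2.23 in the Acute libraries. The 2 groups did not overlap for any of these 4 genes. *Haspin* lies within *Itgae*, so their reads may not be separable. The calls of *Gja5*, *Itgae* and *Il10* held whichever library was left out.

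Of the 15 DEGs with the largest increases, *Spsb1*, *Adgrg1*, *Cited4*, *Msrb3* and *Ky* also stood far above every Acute library. *Spsb1*, a SOCS box protein, rose from 1.83 and 6.02 to 1359 and 1437 against 1.12 to 8.43 in Acute cells. *Adgrg1* encodes GPR56, an adhesion receptor of cytotoxic lymphocytes, and it rose from 77.7 and 28.1 to 9957 and 10599.9. *Cited4*, a transcriptional cofactor, was at 1.83 and 2.01 and 606 and 769, and *Msrb3*, a methionine sulfoxide reductase, at 0 and 3.01 and 334 and 409. *Ky*, known for its role in muscle, was at 0 in both Effector libraries and at 302 and 292 in T_Dysf, at least 103-fold higher. Other increases were shared in level with rested cells. *Cntn1*, a neuronal adhesion molecule, was listed at 0 in both Effector libraries and at 268 and 216 in T_Dysf, but the Acute libraries held 201 to 353. *B4galnt2*, a glycosyltransferase, *Car2*, a carbonic anhydrase, *Adcy5*, an adenylyl cyclase, and *Tmem273* were intermediate in the Acute libraries. *Car2* was at 22.8 and 5.02 in Effector, 113 to 198 in Acute and 5609 and 5685 in T_Dysf libraries. *Tmem273* was at 38.4 and 3.01, 268 to 445 and 4613 and 5195 in the same order, *Adcy5* at 9.14 and 1.003, 11.9 to 36.9 and 923 and 1070.2, and *B4galnt2* at 2.74 and 3.01, 12.6 to 93.9 and 1349 and 1099.6. *Apol9b*, at 0.914 and 5.82 in Effector and 1360.3 and 1672 in T_Dysf, has the near-identical neighbour *Apol9a*, and the split of reads between them is uncertain. On the log2 scale these 15 increases ran from 7.53 ± 0.72 for *Msrb3* to that of *Gja5*. Held without any single library were the calls of *Spsb1*, *Adgrg1*, *Cited4*, *Msrb3*, *Cntn1*, *B4galnt2* and *Car2*, and that of *Ky* was also lost without Effector replicate 2.

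The largest decreases took genes expressed in effector and rested cells alike down to a few reads. *St6gal1* (chr16:23224729-23360350), the sialyltransferase that adds α2,6-linked sialic acid, was at 374 and 607 in Effector, 467 to 1726 in Acute and 7.77 and 0 in T_Dysf libraries (log2 fold change -7.33 ± 1.03; adjusted p = 0.016). *Dapl1*, a gene of naive and memory T cells, fell from 157 and 491 to 2.59 and 0, at least 123-fold lower. *Slamf6* (chr1:171917458-171948958) encodes Ly108, a marker of progenitor-like exhausted cells, and it fell from 452 and 807 to 5.18 and 5.34 with 143 to 227 in Acute libraries (log2 fold change -6.60 ± 0.33; adjusted p = 0.0018). *Ms4a4c*, a membrane protein gene of lymphocytes, fell from 2635 and 3367 to 25.9 and 23.1 and was at 2352 to 3264 in Acute cells. *Dnajc27* and *Mgarp*, the latter a mitochondrial protein, showed the same order, with T_Dysf libraries at 7.77 and 0.89 and at 0 and 0. For *Mgarp* the Effector libraries differed, at 212 and 35.1. The amino acid transporter *Slc6a19* went from 59.4 and 138 to 1.73 and 0.89. Only *St6gal1* and *Mgarp* in this set lost the call when 1 library was left out, *St6gal1* without Effector replicate 2.

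Another set of the largest decreases was highest in Effector cells and partly or wholly lost in rested cells too. *Acsl3*, an acyl-CoA synthetase of lipid synthesis, was at 254 and 287 in Effector, 37.4 to 58.2 in Acute and 4.32 and 1.78 in T_Dysf libraries. *Utp14b* lies in the same locus as *Acsl3*, with overlapping annotation, so their reads may not be separable. The interferon-induced genes *Oasl1* and *Oasl2* fell from 163 and 219.7 to 3.45 and 3.56 and from 201 and 898 to 6.90 and 3.56. *Gucy1a1*, a subunit of the nitric oxide receptor, fell from 255 and 494 to 9.49 and 9.79, and *BC035044*, from 205 and 397 to 4.32 and 7.12. *Zfp365* was at 111 and 158 and 2.59 and 3.56. Log2 fold changes in this set ran from -5.04 ± 0.39 for *Zfp365* to -6.15 ± 1.06 for *Oasl2*, whose Effector libraries were the furthest apart. *Acsl3*, *Oasl1*, *BC035044* and *Zfp365* held the call without any single library, *Oasl2* also lost it without Effector replicate 2 or either Acute-7d library, and *Utp14b* without all but T_Dysf replicate 2.

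**Figure D2:**
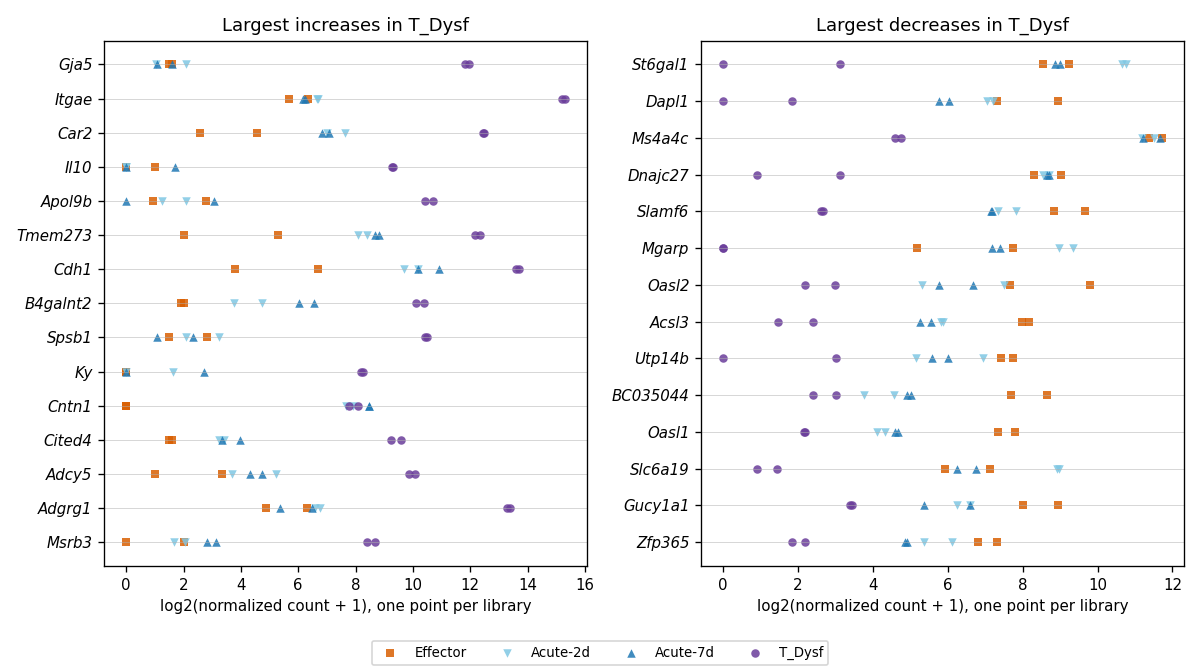
Level of the genes with the largest changes in each of the 8 libraries, 1 point per library, on a log2 scale. In the left panel T_Dysf points lie far right of Effector points and, except for *Cntn1*, of Acute points; in the right panel T_Dysf points lie furthest left in every row, with Acute points between them and Effector points or beside or above the latter.

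Inhibitory receptors did not move as one group. PD-1 (*Pdcd1*) was as high in Effector libraries, at 4017 and 3043, as in T_Dysf, at 3754 and 4022, and the groups overlapped (log2 fold change 0.15 ± 0.20; adjusted p = 0.68). Rested cells held 352 to 598. The other classical checkpoint receptors were not DEGs either: *Lag3*, whose product binds MHC class II, had a log2 fold change of 0.47 ± 0.25 (adjusted p = 0.28), *Havcr2*, which encodes Tim3, 0.87 ± 0.31 (adjusted p = 0.13), and *Tigit* 1.09 ± 0.38 (adjusted p = 0.12). *Havcr2* and *Tigit* libraries did not overlap, at 2152 and 1173 against 2763 and 3060.3 and 1860.5 and 977 against 3097 and 2665. *Tigit* became a DEG when low-level genes were filtered out before the fit. *Cd101*, a marker of terminal exhaustion, was at 334 and 336 against 707 and 577, and it missed the fold threshold with an adjusted p of 0.029. The list of 22 inhibitory receptors and ligands also holds enzyme genes, such as *Cd38* and *Entpd1*. Of its members 8 rose and 2 fell, and the median log2 fold change of the list was 0.87. Those that rose were other receptors and enzymes: *Cd244a*, encoding the NK-type receptor 2B4, from 1071 and 391 to 4625 and 4737, *Cd200r4* from 154 and 84.3 to 1153 and 934, *Cd96* from 3507 and 2458 to 12048 and 12188, *Cd38*, an NAD hydrolase, from 378 and 204 to 1566 and 1567, and *Cd200r2*, *Cd200r1*, *Vsir* and *Entpd1*. Whether each of them is inhibitory in these cells was not tested. *Btla* fell from 928 and 1036 to 69.9 and 60.5, and *Cd160* from 1437 and 945 to 588 and 498. Counts of members that rose were 2 without T_Dysf replicate 1, 4 without T_Dysf replicate 2 and 5 without Effector replicate 2 or either Acute-2d library. With the RESUB term the count was 0. Single calls that held throughout were those of *Cd96*, *Cd200r1* and *Btla*.

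Genes of TGF-β signaling rose at several levels of the pathway, from the ligand to the feedback regulators. *Tgfb3*, a ligand gene, rose from 19.2 and 14.04 in Effector to 2756 and 3228 in T_Dysf, with 14.1 to 27.4 in Acute libraries (log2 fold change 7.42 ± 0.23; adjusted p = 0.00058). *Tgfb1*, the ligand gene with the higher level in Effector cells, was at 4284 and 5324 and 3878 and 3940.2 and was not a DEG. The receptor genes *Tgfbr2* and *Tgfbr1* rose from 3237 and 2950.4 to 9122 and 9301 and from 374 and 488 to 1011 and 891. *Tgfbr2* was intermediate in Acute cells, at 6427 to 7484. The coreceptor *Tgfbr3* and the activin and BMP receptors *Acvr2a* and *Acvr1* also rose. *Acvr2a* was at 40.5 and 48.9 in Effector, 684 and 699.8 in T_Dysf and 660.5 to 851 in Acute libraries, so its level was low in Effector cells alone. Inhibitors of the pathway rose too: *Pmepa1*, which sequesters receptor-regulated SMADs, from 34.7 and 110.4 to 1693 and 1950.1, *Skil* from 784 and 1050.3 to 6720.4 and 6024, *Ski* from 1615 and 1604 to 4191 and 4835, and the ubiquitin ligase *Smurf2* from 335 and 391 to 1266 and 1229. *Smurf1* had a log2 fold change of 0.48 ± 0.13 (adjusted p = 0.072). *Smad3*, which transmits the signal, went the other way. It fell from 679 and 1181 to 68.2 and 96.1, while Acute libraries held 1723 to 1856. In all, 11 of 31 genes rose and 2 fell, with a median of 0.48. Without T_Dysf replicate 1, 5 rose, and with the RESUB term 5. *Tgfb3*, *Tgfbr2*, *Acvr2a*, *Ski* and *Smad3* held their calls without any single library, and *Tgfbr1* lost it without either Effector library too.

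Some integrin genes known from tissue-resident cells rose, and some genes for egress and lymph node entry fell. *Itga1*, the α chain of a collagen-binding integrin of resident cells, rose from 117 and 90.5 to 9359 and 9508, with 1332 to 2889 in Acute libraries. *Itgav*, whose product binds latent TGF-β, rose from 1846 and 1813 to 5768 and 5881. *Cd69*, which blocks egress, was at 1077 and 1385 in Effector and 7866 and 8298 in T_Dysf, and Acute libraries lay just below T_Dysf, at 5367 to 7469. Of the genes for egress and lymph node entry, *S1pr1*, the receptor that guides T cells out of tissue, fell from 2035 and 1479.7 to 68.2 and 88.96 (22.4-fold lower; log2 fold change -4.46 ± 0.22; adjusted p = 0.0019), its activator *Klf2* from 1231 and 1105 to 104 and 133, and *Ccr7* from 461 and 2006 to 38.9 and 66.7. All 4 Acute libraries held more of each than T_Dysf. Of 14 genes in the list of homing and egress, 4 fell, *Cxcr4* included, and 2 rose, *Cd69* and *Rgs1*. Leaving out T_Dysf replicate 1 left 2 lower, and 1 rose without any of the T_Dysf, Effector or Acute-7d libraries. The RESUB term left 2 lower and 1 higher. *S1pr4* was not a DEG, at 3439.5 and 2686 and 1202 and 1537. Among inflammatory chemokine receptors, *Cxcr3* fell from 4708 and 5491 to 1554 and 1752 and *Ccr4* from 88.6 and 152 to 14.7 and 9.79. *Cx3cr1* rose but stayed low, at 87.2 and 67.6 in T_Dysf, and *Cxcr6*, a receptor of resident cells, missed the test, with Effector libraries at 9282 and 3716 and T_Dysf at 13971 and 15736 (adjusted p = 0.13). *Cxcr4* fell from 196 and 331 to 44.02 and 51.6. *Cd81*, a tetraspanin, fell from 224 and 158 to 12.1 and 11.6, and the abundant integrin genes *Itgal* and *Itgb2* were not DEGs. Integrin and adhesion genes divided evenly, 6 of 23 higher and 6 lower, with counts of 3 and 3 without T_Dysf replicate 1 and 3 and 1 with the RESUB term. The calls of *Itga1*, *Itgav*, *Cd69*, *S1pr1* and *Klf2* did not depend on 1 library, while that of *Ccr7* was lost without any of the Acute or T_Dysf libraries.

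Several cytotoxic and secreted effector genes were higher in T_Dysf than in Effector cells, although most members of these lists were not called. *Gzma*, a granzyme that cleaves after basic residues, rose from 10176 and 4933 to 380972 and 357778, a 48.9-fold increase (log2 fold change 5.70 ± 0.36; adjusted p = 0.0031). Acute libraries held 6609.8 to 13312. *Gzmk* rose from 144 and 111 to 1149 and 1112. *Gzmf* and *Gzmd*, at 807 and 723 and 1944 and 1394 in T_Dysf, rose as well, but these near-identical granzyme genes can share reads, and *Gzmd* was higher in the Acute libraries, at 2069.6 to 2667. *Gzmb*, the most abundant granzyme of Effector cells, was at 90949 and 66735 and 149579 and 149509, with an adjusted p of 0.05 and a fold change just under the threshold. Of 23 granzymes, perforin and granule proteins, 8 rose and 1 fell. Without T_Dysf replicate 1 or 2, 3 or 5 rose, and with the RESUB term 2. *Ifng*, the gene of interferon-γ, rose from 569 and 838 to 3441 and 3230.1, the death ligand *Tnfsf10* from 2059 and 1315 to 6539 and 7324, and *Spp1* from 900.1 and 817 to 3665 and 3966. *Tnf*, at 303 and 835 and 761 and 815, was not a DEG. In all, 4 of 19 cytokines and death ligands rose and none fell, with 2 higher without either T_Dysf library and 1 with the RESUB term. Of 10 chemokines, 2 rose and none fell: *Ccl5* went from 10689 and 1891 to 53499.7 and 60019.9 and *Ccl4* from 551 and 616 to 3633 and 3091, whereas *Ccl3*, at 545 and 805 and 2442 and 2266, missed the test (adjusted p = 0.11). The chemokine count was 0 without T_Dysf replicate 1 or with the RESUB term, and 1 without T_Dysf replicate 2, Effector replicate 2 or any Acute library. Receptors shared with NK cells rose in 5 of 28 cases, led by *Klra5* from 30.2 and 10.03 to 1506 and 1222 and *Fcer1g*, a signaling adaptor, from 156 and 122 to 924 and 1111. Those calls depended on single libraries: 0 rose without T_Dysf replicate 1, T_Dysf replicate 2 or either Acute-2d library, and 1 without Effector replicate 2. With the RESUB term 0 rose. Members of the *Klra* family resemble each other closely and may share reads. The NK cell marker *Ncr1* was at 16.4 and 8.03 in Effector and 2.59 and 1.78 in T_Dysf. Of the 5 NK cell markers, 2 had log2 fold changes above 0 and 3 below, and none was called. Their summed levels were 258 to 568 in Effector and 250 to 562 in T_Dysf. *Gzma*, *Gzmf* and *Spp1* held their calls throughout, *Ifng* and *Tnfsf10* lost them without either T_Dysf library, *Ccl4* without Effector replicate 2 or T_Dysf replicate 1, and *Ccl5* without any Acute or T_Dysf library.

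Several early-response transcription factors that were low in Effector cells rose, while most TCR-proximal genes were not DEGs (21 of 29). *Cd3g*, *Cd3e* and *Cd8a* rose, for example *Cd3g* from 13353 and 9549 to 37129.8 and 32348, while the kinase gene *Lck* had a log2 fold change of 0.18 ± 0.08. *Cd5*, which tunes TCR signals, fell from 2678 and 4144 to 691 and 694, and *Vav2*, an exchange factor, from 262 and 411 to 25.9 and 22.2. *Egr1*, an immediate early factor, rose from 1211 and 2272 to 23229.7 and 28953, and the Acute libraries spread from 4509.7 to 18215. Of the AP-1 genes, *Fos* rose from 111 and 77.2 to 722 and 879, *Fosb* from 146 and 95.3 to 1444 and 1112, and *Maff* from 42.9 and 60.2 to 277 and 209. None of these 3 exceeded all of the rested libraries. *Bach2*, an AP-1 competitor that favours memory, fell from 726 and 1115 to 62.1 and 82.7, against 1515 to 2349.6 in Acute libraries. *Tox*, the factor that programs exhaustion, was not a DEG: it was at 403 and 690.2 in Effector and 245 and 234 in T_Dysf, both above the Acute libraries at 51.3 to 107 (log2 fold change -1.14 ± 0.47; adjusted p = 0.18). *Nr4a1* and *Nr4a2*, also induced by the TCR, had log2 fold changes of 0.33 ± 0.43 and 1.65 ± 0.46 (adjusted p = 0.67 and 0.079). *Irf4* fell from 3418 and 4097 to 1588 and 1462, and *Ikzf4* rose from 297 and 438 to 1902 and 1885. *Hic1*, a repressor found in resident lymphocytes of the gut, rose from 254 and 166 to 1682 and 2214 and lay at 88.1 to 159.8 in the Acute libraries. *Zbtb32* fell from 1187 and 1239 to 255 and 249. Among 25 TCR-induced factors 5 rose, a count of 0 without T_Dysf replicate 1, 2 without T_Dysf replicate 2, 1 without Effector replicate 1 and 3 without Effector replicate 2 or either Acute-7d library. With the RESUB term the count was 0. *Vav2*, *Bach2* and *Hic1* held their calls without any single library, and *Egr1*, *Fosb*, *Irf4* and *Ikzf4* also lost theirs without either Effector library.

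Several memory and quiescence genes that Effector cells still expressed were lower in T_Dysf. *Tcf7*, which encodes TCF1, fell from 2178 and 8065 to 161 and 122 (36.3-fold lower; log2 fold change -4.89 ± 0.63; adjusted p = 0.013). The Effector replicates differed in *Tcf7*, yet both lay above T_Dysf, and Acute libraries held 7789 to 18473. *Lef1*, its partner, fell from 2046 and 2077 to 198 and 137 (log2 fold change -3.64 ± 0.20). *Foxp1*, at 2677 and 3150.0 and 3173 and 3135, was not a DEG. *Satb1*, a chromatin organizer, was -0.45 ± 0.04 on the log2 scale, with an adjusted p of 0.0073 but under the fold threshold. Of 25 genes in the list, 11 fell, *Slamf6*, *Dapl1* and *Ccr7* among them, and 4 rose. Without T_Dysf replicate 1 no increase was called, and without Effector replicate 1 the increases numbered 2. The decreases numbered 6 without T_Dysf replicate 1 and 7 without replicate 2. The RESUB term left 3 decreases and 0 increases. Costimulatory receptors fell in 7 of 19 cases, including *Tnfrsf8*, encoding CD30, from 560.2 and 1024 to 42.3 and 27.6, *Tnfrsf25* from 10.97 and 40.1 to 0 and 0, and *Cd27*, from 2665 and 3263 to 1363 and 1299.8. *Tnfrsf8* was also low in rested cells, at 10.1 to 53.98. *Tnfrsf9*, encoding 4-1BB, was not a DEG, at 3207 and 4216 and 2691 and 3009. Without T_Dysf replicate 1 or 2, 2 or 4 costimulatory receptors fell, and with the RESUB term 2. Cytokine receptors fell in 7 of 24 cases and rose in none. *Il6ra* went from 57.6 and 88.3 to 4.32 and 4.45 and *Il18rap* from 5695 and 3997 to 1423 and 1429.6, while *Il2rb* was not a DEG. None of these receptors was called without T_Dysf replicate 1 or with the RESUB term. *Lef1*, *Slamf6* and *Dapl1* held their calls throughout, and *Tcf7* lost its call without either T_Dysf library.

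**Figure D3:**
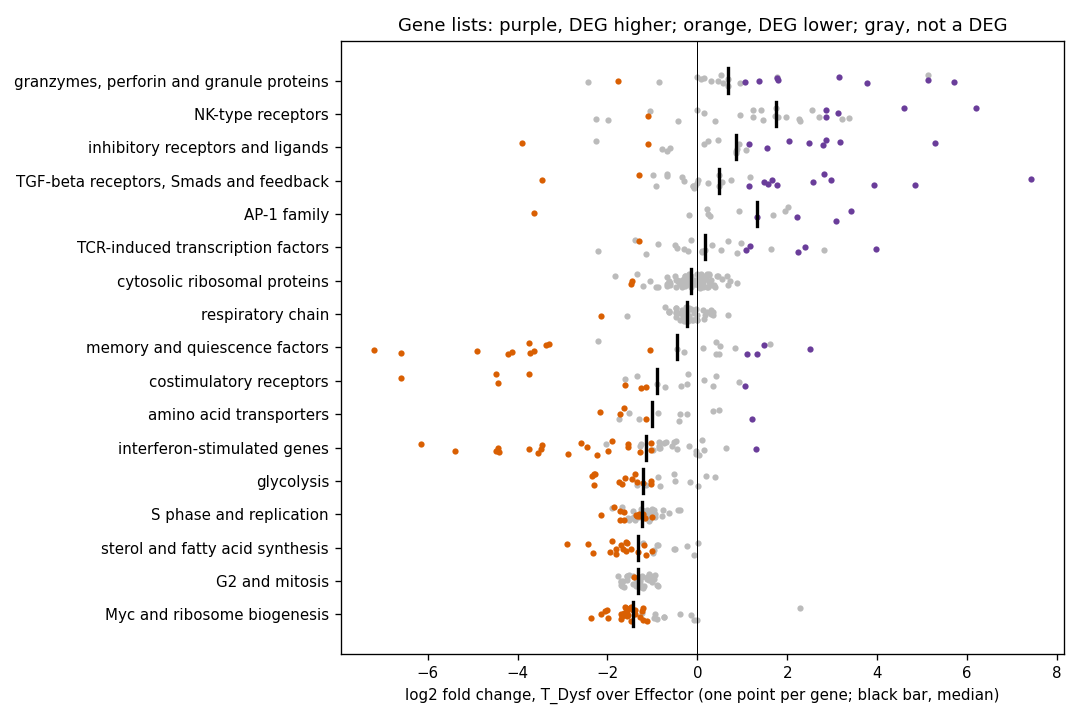
Log2 fold change of T_Dysf over Effector for the members of 17 gene lists, 1 point per gene with the median as a black bar. Medians of glycolysis, replication, mitosis, sterol, ribosome biogenesis and interferon-stimulated genes and of amino acid transporters lie below -1, and those of ribosomal proteins and the respiratory chain lie near 0.

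Most ribosome biogenesis genes fell. Myc targets and ribosome biogenesis genes had a median log2 fold change of -1.43, 26 of 37 fell and none rose. *Polr1b*, a subunit of RNA polymerase I, fell from 1927 and 2275 to 383 and 424 (log2 fold change -2.37 ± 0.11; adjusted p = 0.0015), *Srm*, spermidine synthase, from 1638 and 2442 to 434 and 477, and *Nop16* and *Wdr12*, ribosome assembly factors, from 1014 and 1262 to 237 and 310.5 and from 803 and 1046 to 251 and 204. *Npm1* and *Ddx21* did not pass as DEGs, at -0.75 ± 0.19 and -0.89 ± 0.19 on the log2 scale. Both T_Dysf libraries lay below all 4 Acute libraries for 27 of the 37 genes with a mean of at least 50, where 27.0% of all such genes lay below and 33.6% above. Effector libraries lay above all of them for 30. The share of all genes with Effector above is not given here, so that count does not set the list apart. Structural proteins of the ribosome did not follow: 2 of 78 fell, *Rpl10a* and *Rpl12*, with a median of -0.15. Without T_Dysf replicate 2, 9 were called lower and 2 higher, and without any Effector or Acute library 1 was called lower. *Eef2k*, the kinase that inhibits elongation factor 2, rose from 358 and 355 to 1676 and 1783. Without T_Dysf replicate 1 or 2, 7 or 15 ribosome biogenesis genes were called lower, and with the RESUB term 1. The calls of *Polr1b*, *Nop16*, *Wdr12* and *Rpl10a* held throughout, and that of *Rpl12* was lost without any library other than those of T_Dysf.

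Glycolysis and sterol synthesis both fell, but their levels in rested cells differed. Of 23 glycolysis genes, 13 fell and none rose, with a median of -1.20. *Tpi1*, triose phosphate isomerase, fell from 12543 and 11912 to 2499 and 2309 (log2 fold change -2.35 ± 0.14; adjusted p = 0.003), *Pgk1* from 13464 and 9109.8 to 2391 and 2102, and *Ldha*, which makes lactate, from 35923 and 41632 to 11379.9 and 11547. The lactate transporters *Slc16a3* and *Slc16a1* fell too, from 1517 and 1737 to 321 and 335 and from 1814 and 2781 to 463 and 464. The glucose transporter gene *Slc2a1* was not a DEG, at 1164 and 1545 and 1848 and 1673. For 22 of the 22 glycolysis genes with a mean of at least 50 both T_Dysf libraries lay below all 4 Acute libraries, against 27.0% of all such genes. Sterol and fatty acid synthesis genes fell in 17 of 27 cases, with a median of -1.32. *Cyp51*, a lanosterol demethylase, fell from 4582 and 4019 to 879 and 827 (log2 fold change -2.33 ± 0.10; adjusted p = 0.0015), *Idi1* from 3242 and 3372 to 611 and 612, *Fdps* from 2914 and 2047 to 745 and 541, and *Scd1*, a fatty acid desaturase, from 1826 and 817 to 189 and 141. Here T_Dysf cells were not the lowest: both T_Dysf libraries lay above all Acute libraries for 20 of 27 genes, and both Effector libraries did for 27. Of all genes with a mean of at least 50, 33.6% had both T_Dysf libraries above. The same share for Effector is not given here, so the Effector count does not set these genes apart. *Idi1*, for example, was at 187 to 379 in Acute libraries. Of 43 respiratory chain genes only *Ndufa4* fell, from 1334 and 2089 to 382 and 368, and the median was -0.23. Both T_Dysf libraries lay above all 4 Acute libraries for 34 of these 43 genes and below for 0, against 33.6% and 27.0% of all such genes. Amino acid transporters fell in 4 of 14 cases, led by *Slc7a1* and by *Slc7a5*, a leucine transporter, from 5911 and 9322 to 2361 and 2176, and the serine synthesis genes *Phgdh* and *Psat1* fell from 3606 and 6125 to 1489.7 and 1329 and from 3172 and 4645 to 1291 and 1309.5. Leaving out T_Dysf replicate 1 left 5 glycolysis and 5 sterol genes called lower and 0 amino acid transporters. Without replicate 2, 10 sterol genes and 2 transporters were, and without Effector replicate 2, 2 transporters. The RESUB term left 0 and 2 called lower in glycolysis and sterol synthesis, and 0 amino acid transporters. Among single genes *Tpi1*, *Pgk1*, *Ldha*, *Cyp51* and *Fdps* held their calls without any single library.

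**Figure D4:**
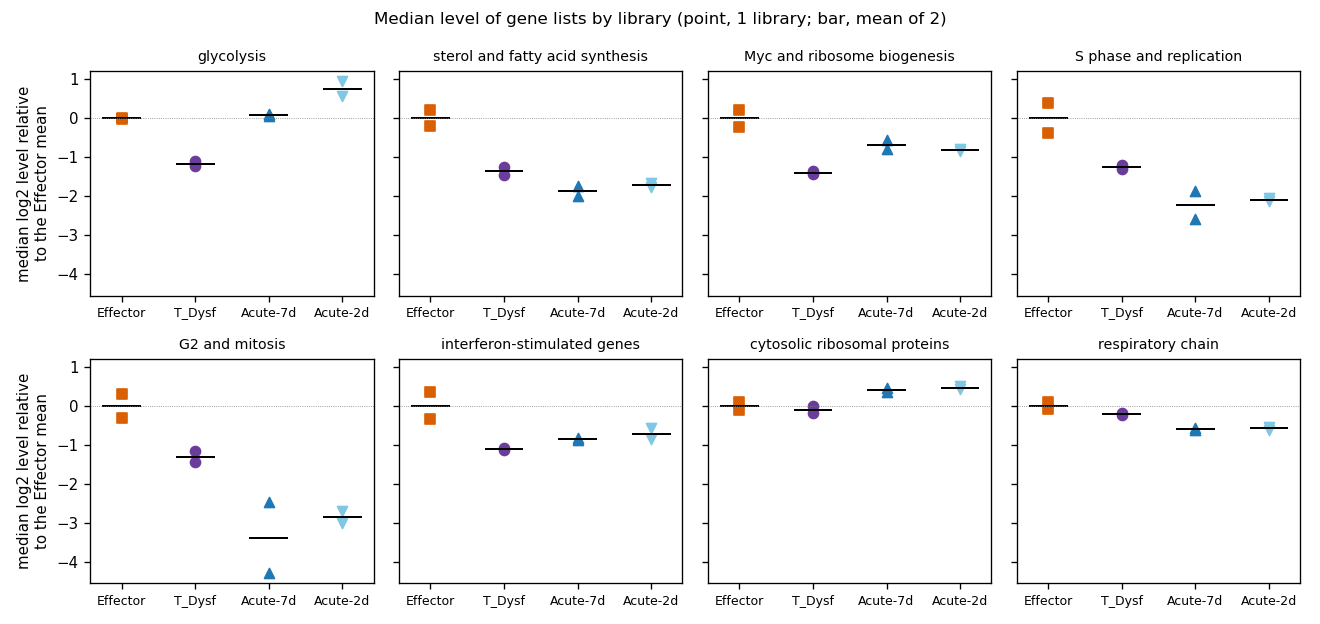
Median level of 8 gene lists in each library, as log2 relative to the mean of the Effector libraries (1 point per library, bar at the mean of 2). T_Dysf lies lowest for glycolysis, ribosome biogenesis and interferon-stimulated genes, and between Effector and the Acute libraries for sterol synthesis, replication, mitosis and the respiratory chain.

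Proliferation genes were lower in direction throughout, with wide spread. All 45 replication genes had log2 fold changes below 0, with a median of -1.24, and 13 passed the test. *Orc1*, of the origin recognition complex, fell from 237 and 452 to 95.5 and 56.8, *Pole*, a replicative polymerase, from 1899 and 3540.2 to 762 and 808, and *Mcm6*, of the replicative helicase, from 6504 and 11088 to 3443 and 3506. *Pcna*, at 7685 and 12989 and 4693 and 4282, missed the test (adjusted p = 0.052). All 38 mitosis genes were also below 0, with a median of -1.32, but only *Cenpa* was a DEG, at 3807 and 4864 and 1745 and 1495. The mitosis count was 8 without either Acute-7d library, 0 without any other single library and 2 with the RESUB term. *Mki67*, the gene of the proliferation marker Ki67, was at 16144 and 28620.2 in Effector, 6848 and 6734 in T_Dysf, 3050.0 and 1817 in Acute-2d and 1096 and 3371 in Acute-7d libraries (log2 fold change -1.66 ± 0.63; adjusted p = 0.15). The Acute-7d pair, which enters the shared estimate of spread, differed more in *Mki67* than either pair of the comparison. Both T_Dysf libraries lay above all 4 Acute libraries for 41 of the replication and 38 of the mitosis genes, against 33.6% of all genes with a mean of at least 50. The number of replication genes called ranged from 0 to 24 as single libraries were left out: 0 without either T_Dysf library, 1 without Effector replicate 2 or either Acute-2d library, 8 without either Acute-7d library and 24 without Effector replicate 1. With the RESUB term it was 0. The cell cycle inhibitor *Cdkn2b*, a known TGF-β target, rose from 53.9 and 58.2 to 188 and 250.0, and *Ccnd2* fell from 12280.1 and 15178 to 6343 and 7093. No gene named in this paragraph held its call throughout.

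Interferon-stimulated genes (ISGs) were lower in T_Dysf. Of 42, 20 fell and 1 rose, with a median of -1.14. Both T_Dysf libraries lay below all 4 Acute libraries for 28 of them and above for 4. Of all genes with a mean of at least 50, 27.0% lay below and 33.6% above. Besides *Oasl1* and *Oasl2*, *Ifi44* fell from 125 and 478 to 8.63 and 11.6 and *Oas2*, which senses double-stranded RNA, from 203 and 707 to 12.1 and 22.2. *Isg15*, a ubiquitin-like modifier, was at 725 and 1819 in Effector, 81.1 and 127 in T_Dysf and 67.7 to 137 in Acute libraries, and *Oas3* at 5102 and 7158, 1563 and 1703 and 2351 to 2889. Effector replicate 2 was higher than replicate 1 for much of the list, by 0.69 in the median on the log2 scale. Without it 12 ISGs fell, without T_Dysf replicate 1 5, and without T_Dysf replicate 2 9. The RESUB term left 2 ISGs called lower. Class I presentation genes, which interferon also induces, fell in 1 of 20 cases, *Psme2*. Only *Oasl1* and *Psme2* of the genes named here held the call whichever library was left out.

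Promoter windows of 250 bases before to 50 after each start site were taken from RefSeq (GRCm38.p6) for 25 of the 30 genes with the largest changes. Windows of *Isg15* and *Oas3* are shown for the ISGs, of *Mcm6* for replication, and of *Gja5* for the largest increase. Capitals mark matches, on either strand, to GAAANNGAA (ISRE, the core of the interferon response element), TGANTCA (AP-1), and TTTGGCGC or TTTCCCGC (E2F).
Isg15, chr4:156200769-156201068, minus strand: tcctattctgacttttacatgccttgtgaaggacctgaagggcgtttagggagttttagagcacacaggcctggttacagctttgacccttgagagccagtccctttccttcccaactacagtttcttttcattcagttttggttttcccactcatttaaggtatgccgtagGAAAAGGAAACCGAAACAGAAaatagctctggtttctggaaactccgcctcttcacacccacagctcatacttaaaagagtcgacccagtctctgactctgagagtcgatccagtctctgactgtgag
Oas3, chr5:120777610-120777909, minus strand: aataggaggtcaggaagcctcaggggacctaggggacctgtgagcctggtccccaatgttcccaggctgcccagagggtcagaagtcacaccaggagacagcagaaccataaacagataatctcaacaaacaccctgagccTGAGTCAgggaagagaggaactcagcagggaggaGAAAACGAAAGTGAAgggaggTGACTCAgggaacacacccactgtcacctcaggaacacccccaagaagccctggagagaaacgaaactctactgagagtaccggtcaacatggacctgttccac
Mcm6, chr1:128359656-128359955, minus strand: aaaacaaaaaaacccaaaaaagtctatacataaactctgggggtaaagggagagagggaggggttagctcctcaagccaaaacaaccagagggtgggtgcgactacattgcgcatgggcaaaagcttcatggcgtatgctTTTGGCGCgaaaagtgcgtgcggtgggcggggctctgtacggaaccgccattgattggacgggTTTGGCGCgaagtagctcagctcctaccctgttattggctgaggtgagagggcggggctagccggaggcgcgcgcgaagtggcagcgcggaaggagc
Gja5, chr3:97032152-97032451, plus strand: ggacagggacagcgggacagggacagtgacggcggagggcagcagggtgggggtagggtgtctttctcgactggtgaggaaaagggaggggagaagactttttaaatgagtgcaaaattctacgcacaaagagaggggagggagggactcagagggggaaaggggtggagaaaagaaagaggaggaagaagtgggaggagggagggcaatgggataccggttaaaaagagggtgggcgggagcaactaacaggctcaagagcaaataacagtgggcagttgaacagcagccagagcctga

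In the *Isg15* window 3 ISRE matches overlap each other, the *Oas3* window holds 2 ISRE and 2 AP-1 matches, and *Mcm6* has 2 E2F matches. An ISRE match was present in 18 of 30 ISGs with a window (60%), against 9.19% of 13674 genes. It was present in ISGs that fell (9 of 15) and in those that were not called (9 of 14). E2F matches were found in 14 of 38 replication genes (36.8%) against 2.84% of all, and the E-box CACGTG, which Myc can bind, in 7 of 29 ribosome biogenesis genes (24.1%) against 10.3%. The palindrome GTCTAGAC, which SMADs can bind, was in 1 of 20 TGF-β pathway genes and 0.256% of all. AP-1 matches were in 8 of 30 ISGs (26.7%) and in 7.31% of all genes. CTTTGAT, the TCF motif, and TCACNCCAC, a sterol response motif (SRE), were in 3.43% and 1.45% of all genes, and the SRE motif in 1 of 19 sterol genes. The *Gja5* window holds no match. A match is a description of the sequence and does not show binding. The ISRE and SRE motifs and the printed windows outside the largest changes were chosen after the expression values were seen.

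Smaller groups are given by count. Signal attenuators of the MAP kinase pathway rose in 4 of 19 cases, among them *Dusp5* from 2550.3 and 2423 to 7500.0 and 8676, and fell in 2, *Dusp7* and *Spred1*. The cytokine signaling inhibitors *Cish* and *Socs2* rose from 3819.6 and 6678 to 16245 and 21105 and from 1065 and 1002 to 3595 and 3360.4. *Cish* was as high in Acute libraries, at 12368 to 17295. No attenuator was called in either direction, and neither inhibitor was called higher, without T_Dysf replicate 1 or replicate 2 or with the RESUB term. Without any one of the Acute libraries 1 attenuator was called higher. *Nt5e*, encoding the adenosine-producing enzyme CD73, rose from 138 and 108 to 2399 and 2204 (log2 fold change 4.22 ± 0.14; adjusted p = 0.00059), and adenosine kinase, *Adk*, fell from 244 and 403 to 56.1 and 39.1. *Fas*, the death receptor, fell from 119 and 176 to 25.03 and 14.2, whereas *Mcl1*, a survival gene, was at 0.70 ± 0.12 on the log2 scale, under the fold threshold. Of hypoxia-inducible targets 1 rose and 2 fell of 20, of fatty acid oxidation genes 1 of 20 rose, and no Gimap gene was called. Of all genes 4.47% rose and 4.75% fell, so counts this small do not set these lists apart. In the chromatin list *Hmgb2* and *Suv39h1* fell, *Hmgb2* from 10439 and 14741 to 3868 and 4811, while *Dnmt1* had a log2 fold change of -1.24 ± 0.31 (adjusted p = 0.06). The structural genes *Anxa2* and *Tagln2* fell, and *Vim*, at 0.24 ± 0.18 on the log2 scale, was not a DEG. *Nt5e*, *Fas* and *Tagln2* held their calls without any single library.

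The groups also differed in a way that their labels do not name. *Xist*, transcribed from the inactive X chromosome of female cells, was at 115 and 53.5 in Effector and 21871 and 22311 in T_Dysf. The Y-linked gene *Ddx3y* was at 1334 and 1491 against 2.59 and 0, and *Uty* at 373 and 348 against 0 and 0. Acute-7d replicate 1, the third library with the RESUB prefix, had the Effector pattern, with *Xist* at 54.5 and *Ddx3y* at 2161. Acute-7d replicate 2 held 30427 and 0. None of these genes was a DEG in the main fit over all 8 libraries, whose shared spread includes the split Acute-7d pair (adjusted p = 0.14 for *Xist*, 0.15 for *Ddx3y*). *Xist*, *Ddx3y* and *Uty* became DEGs when low-level genes were filtered out before the fit. Between Effector and T_Dysf the prefix, the sex-linked pattern and the condition cannot be told apart. Only the Acute-7d pair is split by the prefix. Its spread entered the test that called the DEGs, so genes that differ within it tend to miss the call. Values of the pair over DEGs therefore cannot size an effect of the prefix. Of 1641 DEGs with a mean of at least 50, 22 differed at least 2-fold within that pair in the direction of Effector and 27 in the other direction. Among all 11874 genes with such a mean, 365 differed at least 2-fold within the pair, and the median absolute log2 difference was 0.17. Over the DEGs the median absolute log2 difference in the pair was 0.21. Their median absolute log2 fold change between T_Dysf and Effector was 1.55, a value raised by the 2-fold threshold. For *Gja5*, *Itgae*, *Tgfb3*, *S1pr1* and *Lef1* the pair differed by -0.51, -0.05, 0.32, 0.08 and -0.32 on the log2 scale.

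**Figure D5:**
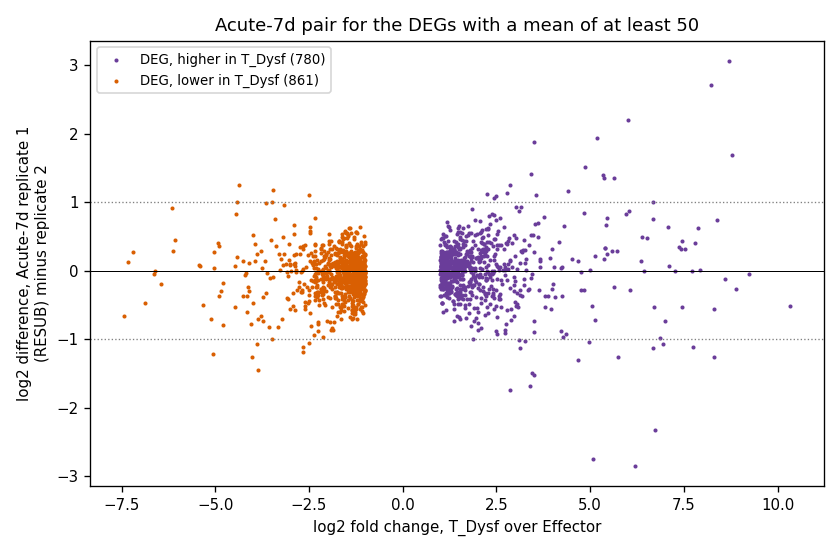
Log2 fold change of T_Dysf over Effector against the log2 difference between Acute-7d replicate 1, which has the RESUB prefix, and replicate 2, for DEGs with a mean of at least 50 normalized counts (1 point per gene; dotted lines at 2-fold). Most points lie between the dotted lines at every size of fold change. The spread of this pair entered the test that called these DEGs.

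Replicates of the Effector condition were further apart than those of T_Dysf in the typical gene. The median absolute log2 difference among genes averaging 50 or more was 0.27 in Effector and 0.13 in T_Dysf. Effector replicate 2 was higher in replication genes, by 0.77 in the median, and in mitosis genes, by 0.62, and it held more *Tcf7* and *Ccr7*. Replicate 1 held more *Ccl5*, at 10689 against 1891, and more *Gzma* and *Cdh1*. In T_Dysf, 499 genes were at least 2-fold higher in replicate 2 and 163 in replicate 1. With 2 libraries in each group, an exact permutation test of a single gene cannot go below p = 0.333 (two-sided), so the calls rest on the spread that limma shares across genes and groups.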

How the data were processed

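The RNA came from P14 CD8 T cells, which the authors purified by cell sorting before sequencing. Per the methods and labels, the authors aligned reads with STAR to the mouse genome build mm10, quantified them to RefSeq transcripts in Partek Flow and normalized the counts with DESeq2. Versions of STAR and DESeq2 are not given in the sources used here. The deposited signal values are therefore counts divided by a size factor for each library, and depth was read back from the size of their steps. Only part of the values were whole multiples of 1 read, so no count model was used, and sampling noise of low genes is not modelled gene by gene. Among values under 1000 reads this share was 52.3% in T_Dysf replicate 1 and 73.0% to 75.7% in the other libraries. Why it was lower in that library was not tested.

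log2(value + 1) of 24303 genes was fitted with limma 3.58.1 in R 4.3.3 (trend, 4 group means over 8 libraries, 4 residual degrees of freedom). The contrast was T_Dysf minus Effector, and DEGs changed 2-fold or more with a Benjamini-Hochberg adjusted p under 0.05. A pseudocount of 1 understates fold changes of low genes. Alternatives were other pseudocounts, filters on low values, scalings, samples and covariates, and leaving out each library. The fit was tested on simulated data.

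Named genes were the 15 DEGs of largest change in each direction (mean of at least 50, groups not overlapping), up to 4 DEGs and 2 abundant genes that were not DEGs from each of 38 lists, genes the study names, and cell type markers. *Acvr1*, *Cd160*, *Cd200r1*, *Cd96*, *Entpd1*, *Isg15*, *Itgav*, *Ldha*, *Mcm6*, *Oas3*, *Rgs1*, *Slc2a1*, *Smurf2*, *Tgfbr1*, *Tgfbr2*, *Tgfbr3*, *Tnf* and *Vsir* were added after their values were seen. The lists, the rule and the comparison were chosen with earlier results of these data known. Some genes within the rule are not reported here.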

Additional observations from a re-analysis of the deposited data

How the results depend on the processing

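The 2241 DEGs (1086 higher and 1155 lower in T_Dysf) numbered 1757 to 2532 under other pseudocounts, filters on low values, scalings, a fit without trend, a table without pseudogenes and the replicate block, and none of the named genes turned in sign under these settings. With the replicate block the counts were 1757 in all, 841 higher and 916 lower. Same-numbered libraries did not deviate together, since the correlations of their deviations from the group means ran from -0.199 to 0.197 over the 6 pairs of groups, so the numbers were not taken as pairs. With the 4 T_Dysf and Effector libraries alone there were 465 DEGs (265 higher, 200 lower), and with the RESUB term 386 (187 higher, 199 lower). An unadjusted p under 0.05 gave 4060 (1916 higher, 2144 lower), and no fold threshold 3787 (1978 higher, 1809 lower). Leaving out 1 library gave 585 to 2484 DEGs, 313 to 1222 higher and 272 to 1338 lower. Where a group was left with 1 library, that library was assumed to vary like the other groups.

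Of the 143 named DEGs, 114 lost the call with the RESUB term and 99 with the 4 T_Dysf and Effector libraries alone. Filters on low values, by the mean or by the highest value with a cutoff of 50, each added 11 calls among named genes. These were *Tigit*, *Mki67*, *Pcna*, *Nr4a2*, *Ccl3*, *Cxcr6*, *S1pr4*, *Dnmt1*, *Xist*, *Ddx3y* and *Uty*. *Pcna* and *Dnmt1* also gained the call under the other scalings. Their status as DEGs therefore depends on the filter. With the RESUB term the log2 fold change turned sign for 4 genes that were not DEGs, to 1.54 for *Ddx3y*, -0.28 for *Nr4a1*, -0.0893 for *Pdcd1* and -0.98 for *Xist*. As single libraries were left out it ranged from -0.0508 to 0.72 for *Nr4a1*, -0.0833 to 1.37 for *Tnf* and -0.0479 to 0.35 for *Pdcd1*. The cause was not tested. Genes at or under 2.59 to 3.35 normalized counts were at the floor of 3 reads, where a difference was not detectable at this depth.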
